A study of Mus musculus with 8 samples.

Results

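The genes described here are 10 genes of the mTOR (mechanistic target of rapamycin) pathway, chosen by symbol: Mtor, Rptor, Rictor, Tsc1, Tsc2, Rheb, Akt1, Rps6kb1, Eif4ebp1 and Eif4ebp2. All 10 were among the 24420 rows of the total RNA table, and 5 of them (Rptor, Rictor, Akt1, Rps6kb1 and Eif4ebp2) were among the 5804 rows of the polysomal table. Mtor, Tsc1, Tsc2, Rheb and Eif4ebp1 were not analysed in polysomal RNA here. The tissue, labelled brain and described as neural tube, came from mouse embryos of stage E11.5. One genotype was wildtype (WT) and the other lacked both Lin28a and Lin28b (Lin28a-/-;b-/-, called dKO). Each genotype was sequenced as total RNA and as polysomal RNA, the RNA that sediments with several ribosomes at once, with 2 libraries for each of the 4 groups. The labels used here name no strain, no kind of knockout allele and no sex, and they do not say whether the 2 libraries of a group came from separate embryos. p-values thus measure only the spread between these libraries, which may be technical.

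The mTOR kinase works in 2 complexes. In mTORC1 it is joined by raptor, the product of Rptor, and in mTORC2 by rictor. Growth factor signals reach mTORC1 through Akt kinases, which inhibit the complex of Tsc1 and Tsc2. That complex keeps the small GTPase Rheb inactive, and active Rheb switches on mTORC1. mTORC1 then phosphorylates S6 kinase, encoded by Rps6kb1, and the 4E-BP proteins, encoded by Eif4ebp1 and Eif4ebp2, which otherwise hold back the cap-binding initiation factor eIF4E. Much of this control is by phosphorylation, which RNA counts do not measure. In neural progenitors the pathway is known for its part in growth and proliferation, and the title of the series places the study on protein synthesis and progenitor upkeep.

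Lin28 proteins block the maturation of let-7 microRNAs, so the let-7 sequence and its matches in the 10 genes are shown first. Of 11 mature let-7 family names in RefSeq (GRCm38.p6), 10 share the seed of let-7a, bases 2 to 8, which stands in capitals here. The let-7a-5p copy shown lies on the minus strand at chr13:48538239-48538260.
let-7a-5p: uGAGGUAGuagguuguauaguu
The letters that pair with this seed, CTACCTC, were searched on the sense strand of the 3′ UTR of the longest protein-coding transcript of each gene in GENCODE M21 (GRCm38). They occurred once each in Rictor, Tsc1 and Akt1 and in none of the other 7 genes. The matches, in capitals with the bases around them, start at base 1863 of the Rictor, base 660 of the Tsc1 and base 166 of the Akt1 3′ UTR.
Rictor: attttaaacaCTACCTCagttaacagag
Tsc1: ctctgccccaCTACCTCttatttatttg
Akt1: gggcagcagcCTACCTCccagccaggtc
Only the Rictor match is followed by an A, which extends the site for microRNAs. Of 21658 genes with a 3′ UTR, 8.56% held the match, and of the 10879 whose 3′ UTR length fell in the range of the 10 genes, 12.6% did. A match is a description of letters and not a shown site. In total RNA none of these 3 genes passed the test between genotypes, with values given below by role.

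The libraries were checked first. Total RNA columns summed to between 15060560 and 15768767 counts. Lin28a and Lin28b were lower in all dKO than in all WT libraries, with total RNA log2 fold changes of -3.35 ± 0.12 (SE) and -1.28 ± 0.07 (adjusted p = 9.18e-168 and 1.85e-74, edgeR quasi-likelihood test). All 8 neural progenitor markers and all 6 neuron markers were detected, so markers of the labelled tissue were present. The progenitor markers (1 of 8 tested rose and 3 fell) summed to 4103 to 4133 CPM in WT and 3720 to 3739 in dKO. CPM are read counts relative to the library total, which was not scaled for these marker sums and was scaled for the values of single genes. The neuron markers (2 of 6 tested rose and 2 fell) summed to 4062 to 4076 in WT and 3939 to 3944 in dKO. Red cell markers (5 of 6 tested fell, and 1 more was at 0) summed to 4339 to 4407 in WT and 2619 to 2624 in dKO, and mesenchyme markers (3 of 5 tested fell) to 264 to 281 and 206 to 215. Macrophage markers (1 of 4 fell) summed to 28.6 to 30.8 in WT and 21.8 to 23.8 in dKO. The part of these differences in the values of the mTOR genes was not tested. In bulk tissue, fewer cells of a type and less RNA per cell cannot be told apart.

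Levels are first given per length, as CPM per kilobase of annotated exon, since only this scale allows genes to be compared with each other. In WT total RNA, Akt1 stood highest at 133.8 ± 0.783 CPM per kb (mean ± SD, n = 2). Rheb at 47.9 ± 3.51 and Eif4ebp2 at 46.3 ± 1.58 came next, and their libraries overlapped. Rps6kb1 (16.2 in both libraries), Tsc2 (14.9 in both libraries) and Tsc1 (12.8 and 13.2) followed without overlap, and Eif4ebp1 (11.2 and 13.1) overlapped with Tsc1. The 3 genes that define the complexes were lowest and overlapped with each other: Mtor at 7.44 and 7.66, Rptor at 7.36 and 7.69, and Rictor at 7.23 and 7.49 CPM per kb. In dKO these 3 no longer overlapped: Rictor was at 8.0 and 8.24, Mtor at 6.55 and 6.56, and Rptor at 5.89 and 6.14 CPM per kb. At the top of the order, Akt1 (138.8), Rheb (51.1) and Eif4ebp2 (50.9) kept their places in dKO, and Tsc2 (13.9 and 14.9), Rps6kb1 (13.8 and 14.6) and Tsc1 (13.4 and 14.1) overlapped there.

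**Figure D1:**
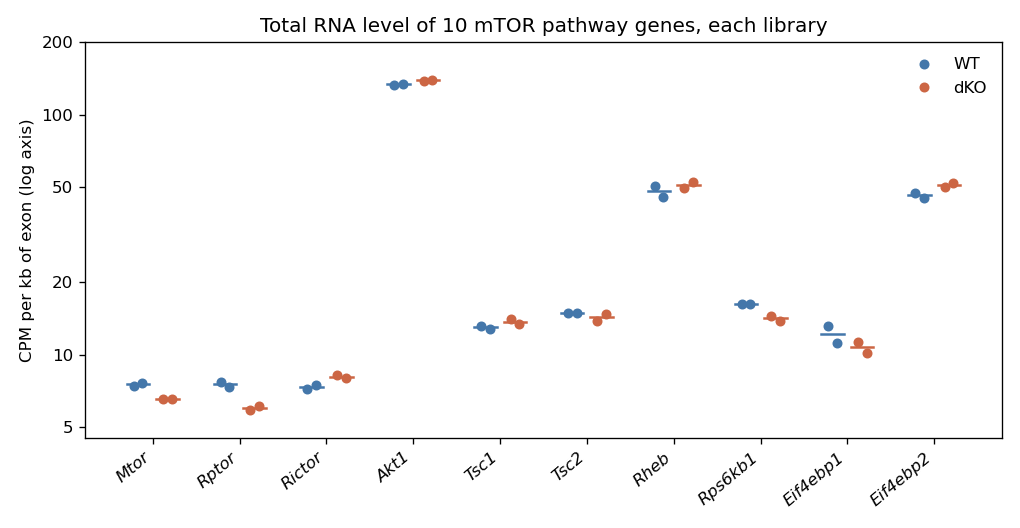
Total RNA levels of the 10 genes on a log axis, in CPM per kilobase of annotated exon. Each point is 1 library (blue WT, orange dKO) and each bar the mean of 2; Mtor, Rptor and Rictor lie together in WT and apart in dKO.

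The first comparison asked which of the 10 genes had other RNA levels when both Lin28 genes were missing. In total RNA, 3 genes fell, namely Rptor, Mtor and Rps6kb1, and 1 rose, Eif4ebp2, while 6 did not pass an adjusted p of 0.05. All changes were small, from -0.32 to 0.14 on the log2 scale. Among all 14594 genes tested, 30.7% passed, 14.7% higher and 16% lower, so 4 of 10 is near the share of all genes. The median log2 fold change of the 10 was -0.00, beside 0.00 for all genes tested. The libraries of the 2 genotypes did not overlap for 8 of the 10 genes, 4 higher and 4 lower in dKO. Of all genes, 62.3% did not overlap, 31% higher and 31.2% lower.

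Among the core subunits, Rptor (chromosome 11, 119602905 to 119899576, plus strand, GRCm38), which encodes the scaffold that brings substrates to mTORC1, had counts of 797 and 734 in the WT and 611 and 629 in the dKO libraries. That is 50.7 and 48.5 CPM against 38.9 and 40.5, with both dKO libraries below both WT libraries. The log2 fold change was -0.32 ± 0.09 (SE; adjusted p = 0.00319, edgeR), 20.1% lower. Mtor (chromosome 4, 148448611 to 148557683, plus strand), the kinase of both complexes, stood at 65.4 and 67.3 CPM in WT and 57.6 and 57.5 in dKO. Its libraries did not overlap either, and its log2 fold change was -0.20 ± 0.08 (adjusted p = 0.0345), 13.2% lower. Rictor (chromosome 15, 6708379 to 6800401, plus strand), the subunit that defines mTORC2, was at 67.3 and 69.8 CPM in WT and 76.7 and 74.5 in dKO. Both dKO libraries were above both WT libraries, but the test was not passed (0.14 ± 0.07, 95% interval -0.00 to 0.28, adjusted p = 0.133). The ratio of Rictor to Rptor counts within a library was 1.33 and 1.44 in WT and 1.97 and 1.84 in dKO total RNA. Both calls depended on single libraries. The Mtor call ended when any 1 of the 4 libraries was left out (adjusted p from 0.077 to 0.17), with DESeq2 (0.0998), with upper-quartile scaling (0.0517) and after an adjustment for GC content (0.0665), and the Rptor call ended without WT replicate 1 (0.0511).

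The upstream genes did not pass the test. Akt1 (chromosome 12, 112653821 to 112674884, minus strand), the kinase that relays growth factor signals, was at 358 and 361 CPM in WT and 372 and 375 in dKO (log2 fold change 0.05 ± 0.03, 95% interval -0.02 to 0.12, adjusted p = 0.258). With the highest counts of the 10 genes, Akt1 also had the narrowest interval. Tsc1 (chromosome 2, 28641228 to 28691167, plus strand), which steadies the inhibitory complex, was at 102.3 and 98.9 CPM in WT and 108.9 and 103.6 in dKO (0.08 ± 0.06, 95% interval -0.04 to 0.20, adjusted p = 0.361). Tsc2 (chromosome 17, 24595816 to 24632630, minus strand), the part of that complex that acts on Rheb, was at 94.8 and 94.3 CPM in WT and 88.0 and 94.1 in dKO (-0.05 ± 0.07, 95% interval -0.18 to 0.07, adjusted p = 0.582). Of the exon length of Tsc2, 10.9% lies opposite exons of Pkd1, and the strand setting of the counting is not given in the sources used here. Rheb (chromosome 5, 24802823 to 24842624, minus strand), the GTPase that activates mTORC1, was at 89.9 and 81.0 CPM in WT and 88.5 and 93.9 in dKO, with overlap between the genotypes (0.09 ± 0.07, 95% interval -0.04 to 0.22, adjusted p = 0.31). The intervals of these 4 genes thus reached no further than -0.18 and 0.22 on the log2 scale.

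Among the effectors, the kinase gene and one of the translation repressor genes moved in opposite directions. Rps6kb1 (chromosome 11, 86498871 to 86544805, minus strand), which encodes S6 kinase 1, was at 130.1 CPM in WT replicate 1, with a WT mean ± SD of 130 ± 0.0645 (n = 2), and at 116.9 and 110.9 in dKO. Both dKO libraries were lower, with a log2 fold change of -0.19 ± 0.06 (adjusted p = 0.00461), 12.4% lower. Eif4ebp2 (chromosome 10, 61428491 to 61452661, minus strand), which encodes the 4E-BP isoform known as the main one in brain, was at 274 and 261 CPM in WT and 288 and 301 in dKO. Both dKO libraries were higher, with a log2 fold change of 0.14 ± 0.04 (adjusted p = 0.00239), 10.1% higher. Eif4ebp1 (chromosome 8, 27260329 to 27276674, plus strand), its paralog, was at 26.2 and 22.4 CPM in WT and 22.6 and 20.3 in dKO, with overlap (-0.18 ± 0.13, 95% interval -0.43 to 0.06, adjusted p = 0.285). Eif4ebp2 counts were 10.4 and 11.7 times those of Eif4ebp1 in the WT libraries and 12.8 and 14.8 times in the dKO libraries. The Rps6kb1 call ended without dKO replicate 2 (adjusted p = 0.121) and the Eif4ebp2 call without WT replicate 2 (0.0984) or dKO replicate 2 (0.118). Both also ended in a fit over all 8 libraries (0.11 and 0.121). That fit includes the dKO polysomal libraries, whose replicates differed most, and their part in this was not tested.

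**Figure D2:**
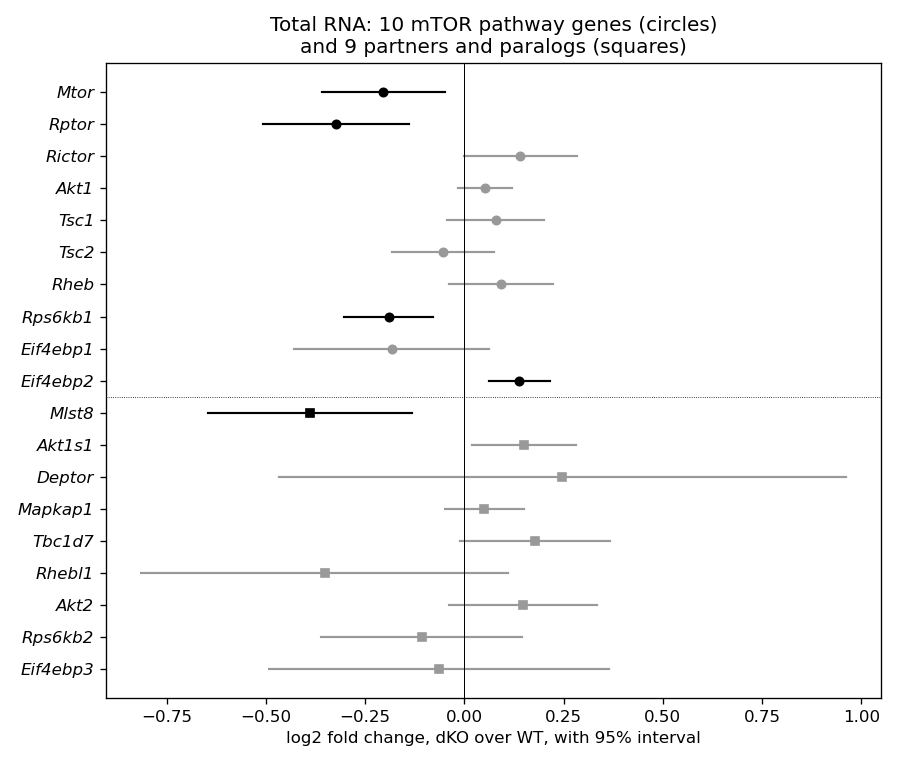
Log2 fold change in total RNA (dKO over WT) with its 95% interval, for the 10 genes (circles) and for 9 partners and paralogs (squares). Black marks an adjusted p under 0.05; among these, Mtor, Rptor, Rps6kb1 and Mlst8 lie below 0, and Eif4ebp2 above.

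Of the 9 partners and paralogs followed, 1 fell and none rose (median 0.05). Mlst8, the small subunit of both complexes, fell from 23.9 ± 0.784 to 18.3 ± 1.06 CPM (n = 2 per genotype; log2 fold change -0.39 ± 0.13, adjusted p = 0.0131). Of its exon length, 25.6% lies opposite exons of Bricd5. This call ended without WT replicate 2 (adjusted p = 0.0841) or dKO replicate 2 (0.135) and with DESeq2 (0.0649). Akt1s1, which encodes an inhibitory partner of mTORC1, was at 0.15 ± 0.07 (adjusted p = 0.0747), passing without WT replicate 2 (0.0423), with upper-quartile scaling (0.0496) and with the GC adjustment (0.0447), and Akt2, a paralog of Akt1, at 0.15 ± 0.10 (0.251). Mapkap1, a subunit of mTORC2, was at 0.05 ± 0.05 and Tbc1d7, the third subunit of the Tsc complex, at 0.18 ± 0.10. Rps6kb2 (-0.11 ± 0.13) and Eif4ebp3 (-0.06 ± 0.22) did not pass, and Deptor (0.25 ± 0.37) and Rhebl1 (-0.35 ± 0.23) had mean levels of 2.58 and 7.16 CPM in WT and wide intervals. Of the exon length of Eif4ebp3, 67.3% overlaps exons of AC115631.1 on the same strand, and 20.2% of that of Rps6kb2 lies opposite exons of Ptprcap.

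The wider pathway was followed with 6 lists, whose counts stand beside the 14.7% of all genes tested that rose and the 16% that fell. Of 9 subunits and assembly factors of the 2 complexes, 2 fell and none rose (median -0.05). These were Mlst8 and Telo2, which helps mature mTOR and related kinases, at -0.47 ± 0.14 (adjusted p = 0.00519). Of 16 genes of the PI3K, Akt and TSC branch, 2 rose and 3 fell (median 0.07). The insulin receptor substrate gene Irs1 rose from 138 ± 2.12 to 182 ± 10.1 CPM (0.40 ± 0.05, adjusted p = 1.31e-13), and Pik3ca, which encodes a catalytic subunit of PI3K, rose by 0.15 ± 0.05 (0.00893). The adaptor gene Grb10, an inhibitor of insulin signalling, fell from 892 ± 3.44 to 696 ± 0.333 CPM (-0.36 ± 0.03, 3.56e-44), and Phlpp1, a phosphatase of Akt, fell by 0.22 ± 0.07 on the log2 scale (0.0145). The median of all genes tested was 0.00. The Telo2 call ended without WT replicate 2 (0.0723) or dKO replicate 1 (0.0784), and the Phlpp1 call without WT replicate 1 (0.056), WT replicate 2 (0.0834) or dKO replicate 2 (0.14). With DESeq2 Phlpp1 was at 0.0597, and in the fit over 8 libraries Telo2 was at 0.0565 and Phlpp1 at 0.0586. The Pik3ca call ended without WT replicate 2 (0.0668) or dKO replicate 2 (0.419), with DESeq2 (0.0667), with the GC adjustment (0.274) and in the fit over 8 libraries (0.274).

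Of 11 genes of the AMPK and energy branch, 2 rose and none fell (median -0.03). Ddit4, a stress-induced inhibitor of mTORC1, rose from 78.1 ± 4.08 to 98.6 ± 1.71 CPM (0.34 ± 0.07, adjusted p = 5.73e-06), and Stk11, the kinase that activates AMPK, rose by 0.20 ± 0.05 (0.00141). Of 29 genes of amino acid sensing at the lysosome, 3 rose and 3 fell (median -0.03). Gatsl2, now named Castor2 and related to the arginine sensor Castor1, rose by 0.46 ± 0.08 (9.44e-08) and Lamtor1, the membrane anchor of the Ragulator complex, by 0.32 ± 0.08 (0.000571). The Rag GTPase gene Rragb fell by 0.36 ± 0.12 (0.0108) and Fnip2, a partner of folliculin, by 0.25 ± 0.07 (0.00416). The Stk11 call ended without WT replicate 1 (0.0639), the Rragb call without WT replicate 1 (0.201) or dKO replicate 1 (0.216), and the Fnip2 call without dKO replicate 1 (0.298). With DESeq2 Rragb was at 0.0712, and in the fit over 8 libraries Stk11 was at 0.0656.

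Downstream, 3 of 18 genes of the S6 kinase and 4E-BP outputs rose and 4 fell (median -0.09). Eef2, the elongation factor whose kinase is inhibited by S6 kinase, rose from 2699 ± 50.5 to 3352 ± 37.2 CPM (0.31 ± 0.01, adjusted p = 1.51e-119), and Maf1, a repressor of RNA polymerase III, rose by 0.24 ± 0.05 (1.88e-05). The eIF4F scaffold gene Eif4g1 fell by 0.28 ± 0.05 (2.22e-07) and the helicase gene Eif4a1 by 0.22 ± 0.06 (0.0016). Of 14 translation genes whose mRNAs begin with a terminal oligopyrimidine tract (TOP), a class whose translation depends on mTORC1, 7 rose and 3 fell (median 0.09), beside 14.7% and 16% of all genes tested. Among them the nucleolar chaperone gene Npm1 changed by -0.35 ± 0.04, Eef1d, an exchange factor subunit, by -0.31 ± 0.06 and Nap1l1, a histone chaperone gene, by -0.29 ± 0.03. Eef2 and Eif4b stood in both of these lists. The Eif4a1 call ended without WT replicate 1 (adjusted p = 0.0919).

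The polysomal table listed 5 of the 10 genes, a share of the same order as the 57.9% of the 7868 genes with a mean count in total RNA at or above that of Eif4ebp1. The listed genes had been chosen for a difference between genotypes: among those with a mean of at least 100 counts, no gene had a log2 ratio of its summed dKO counts over its summed WT counts between -2.04 and -1.71, with 2927 below and 2514 above. Of 5777 listed genes tested, 99.7% passed between genotypes (47.2% higher and 52.5% lower), so a call for a listed gene says nothing beyond its listing. The values are therefore a description of direction and size. CPM in polysomal RNA are relative to the listed genes and not to whole libraries.

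In polysomal RNA, Akt1, Rptor and Eif4ebp2 were higher and Rps6kb1 and Rictor lower in dKO than in WT, without overlap between the libraries. Lack of overlap held for all listed genes (100%; 47.2% higher and 52.8% lower), whose median log2 fold change was -0.35. Akt1 had raw counts of 7091 and 7607 (WT) and of 3137 and 4236 (dKO), which is 451 and 467 CPM against 923 and 834 (log2 fold change 0.94 ± 0.07, SE). Rptor was at 68.1 and 68.8 CPM in WT and 107.0 and 96.7 in dKO (0.57 ± 0.11), opposite in sign to its total RNA. Eif4ebp2 was at 250.3 and 253 CPM in WT and 393 and 360 in dKO (0.58 ± 0.07). Rps6kb1 had raw counts of 3322 and 3493 (WT) and of 262 and 481 (dKO), or 211 and 214 CPM against 77.0 and 94.7 (-1.30 ± 0.12), 2.46-fold lower. Rictor was at 110.7 and 105.3 CPM in WT and 68.8 and 57.9 in dKO (-0.78 ± 0.12), with a total RNA value of the other sign. The ratio of Rictor to Rptor counts was 1.63 and 1.53 in the WT and 0.643 and 0.599 in the dKO polysomal libraries. A ratio within a library does not depend on the scaling, and here it moved in the opposite direction from total RNA. The 2 genes differ in GC content, with which polysomal changes ran across the listed genes, as described below. After the GC adjustment Rictor was at 0.24 (adjusted p = 0.226, edgeR) and Rptor at -0.23 (0.0939) in polysomal RNA, and neither passed. In total RNA they were at 0.08 (0.419) and -0.30 (0.00775), so that the value of Rictor lay above that of Rptor in both fractions. Of the partners, Akt1s1 (0.78 ± 0.09) and Mapkap1 (0.51 ± 0.08) were higher.

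**Figure D3:**
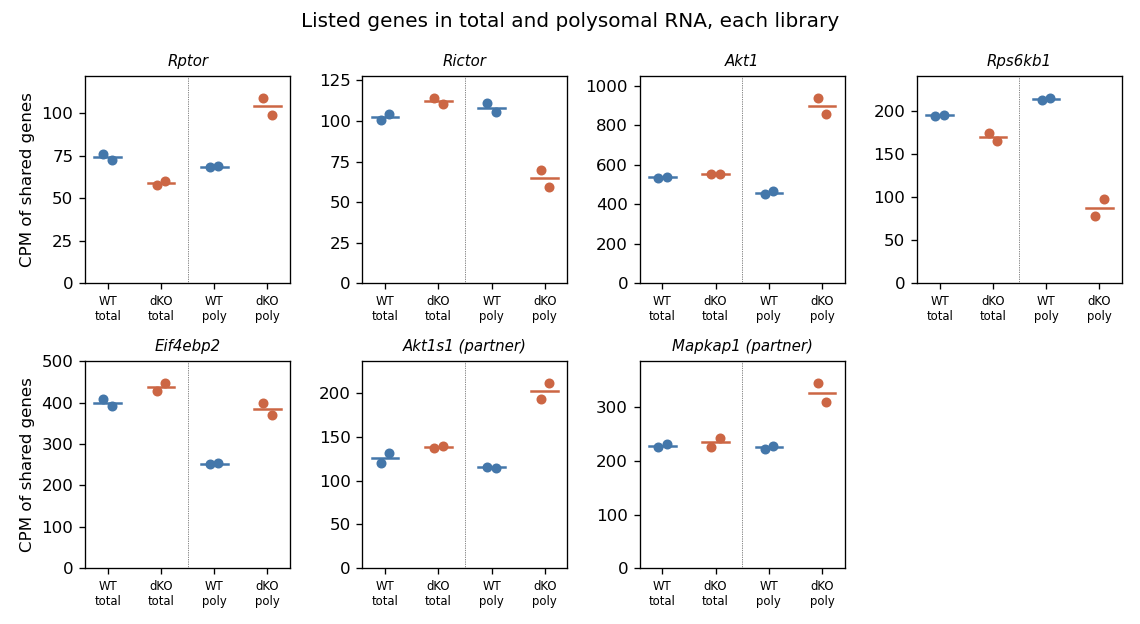
CPM relative to the genes shared by both tables, for the 5 listed genes of the 10 and 2 listed partners; points are libraries (blue WT, orange dKO) and bars the mean of 2. The dKO polysomal libraries stand apart from the other 3 groups for all of these genes but Eif4ebp2. They lie upward for Akt1, Rptor and the partners Akt1s1 and Mapkap1, and downward for Rictor and Rps6kb1.

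For these 5 genes the direction in polysomal RNA ran with the GC content of the transcript. Rps6kb1 (39.2% GC) and Rictor (42.5%) were lower in dKO, and Eif4ebp2 (52.4%), Rptor (56.5%) and Akt1 (59.7%) were higher. Of the partners, Akt1s1 (61.8%) was higher, and so was Mapkap1 (48.6%), which went against its GC range: among 1099 listed genes with 45 to 50% GC the median log2 fold change was -0.57 and 21.8% were higher. Over 5739 listed genes the Spearman correlation of GC content and log2 fold change was 0.77 (across genes of the same 4 libraries, which are not replicates), against -0.10 over 14462 genes in total RNA. Among 445 listed genes with 35 to 40% GC the median log2 fold change was -1.30, the value of Rps6kb1, and among 1407 with 40 to 45% it was -0.91. Among 1052 genes with 50 to 55% GC it was 0.63 and among 1229 with 55 to 60% it was 0.87. Rps6kb1, Eif4ebp2 and Akt1 lay close to the median of their own GC range, Rptor below it and Rictor slightly above. After an adjustment for GC content, which also removes any difference that goes along with GC, the log2 fold changes were 0.24 for Eif4ebp2 (adjusted p = 0.0199), 0.24 for Rictor (0.226), 0.03 for Rps6kb1 (0.754), -0.12 for Akt1 (0.0809) and -0.23 for Rptor (0.0939). The precursor of ribosomal RNA, Rn45s, also set the dKO polysomal libraries apart, at 4.58% and 9.52% of the listed counts against 0.109% and 0.12% in WT; its part in these values was not tested.

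**Figure D4:**
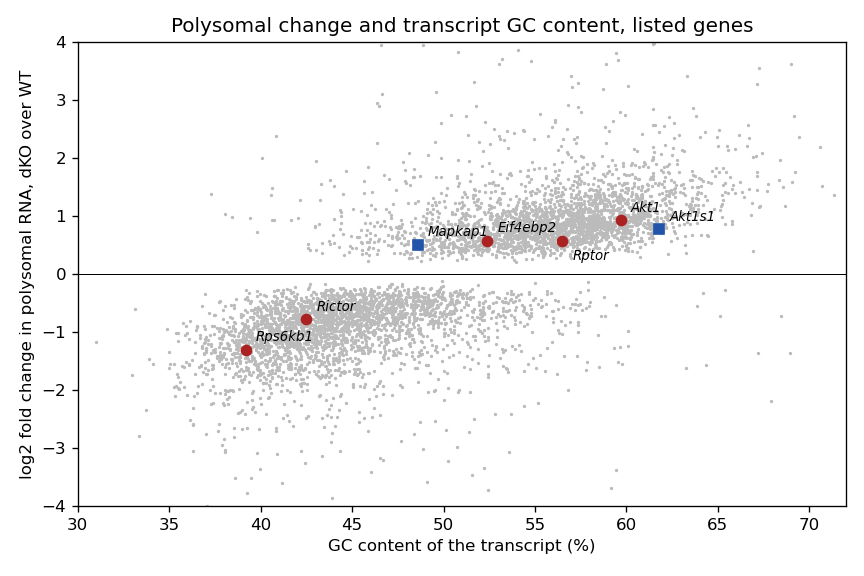
Log2 fold change in polysomal RNA (dKO over WT) against the GC content of the transcript. Grey points are the listed genes inside the axes (5652, with 87 outside), red circles are 5 of the 10 genes and blue squares 2 partners; the band with few points near 0 is the gap among the listed genes, and the red circles follow the slope of the grey points, while Mapkap1 lies above most genes of its GC range.

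A further comparison asked how polysomal RNA differed from total RNA within WT. It covers only genes listed for a genotype difference, and the part of that choice in this comparison was not tested. CPM here are relative to the 5802 genes shared by both tables. Eif4ebp2 was lower in polysomal RNA, at 251 and 253 CPM against 409 and 391 in total RNA (log2 ratio -0.67 ± 0.06, SE; adjusted p = 3.59e-05, edgeR over 8 libraries). Akt1 was lower as well, at 452 and 467 against 535 and 541 CPM (-0.23 ± 0.05, adjusted p = 0.0166). For both genes every WT polysomal library was below every WT total RNA library. The WT fractions did not overlap for Rptor, Rictor and Rps6kb1 either, so lack of overlap does not set the called genes apart. Its share over all genes was not computed for this comparison. Rptor (-0.11 ± 0.09, 95% interval -0.31 to 0.08), Rictor (0.08 ± 0.08, -0.11 to 0.27) and Rps6kb1 (0.13 ± 0.08, -0.05 to 0.31) did not pass. Of all 5780 genes tested 12% passed, 3.48% higher and 8.51% lower. The Akt1 call ended when any 1 of the WT or total RNA libraries was left out (adjusted p from 0.0526 to 0.192), and Rps6kb1 passed without dKO polysomal replicate 1 (0.0314) or 2 (0.0364).

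The last comparison asked whether the genotype difference itself was unlike in the 2 fractions, by the interaction of genotype and fraction over all 8 libraries. Relative to the shared genes, it was positive for Rptor (0.93 ± 0.13 on the log2 scale, adjusted p = 8.23e-05), Akt1 (0.92 ± 0.07, 2.84e-06) and Eif4ebp2 (0.48 ± 0.08, 0.000314). It was negative for Rps6kb1 (-1.07 ± 0.12, 2.77e-05) and Rictor (-0.89 ± 0.13, 0.000124). Of all 5780 genes tested 89.5% passed, 43.7% higher and 45.8% lower, and the choice of listed genes by their polysomal difference enters this test as well. After the GC adjustment 2377 of the 5780 genes passed, 1314 higher and 1063 lower. Of the 5 genes 1 passed then, Rps6kb1 with the other sign (0.26, adjusted p = 0.0495). The values of the others were 0.11 for Rptor, 0.10 for Eif4ebp2, 0.08 for Rictor and -0.15 for Akt1.

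The other listed pathway genes also moved both ways in polysomal RNA, where nearly every listed gene passed. Of all listed genes tested, 47.2% were higher and 52.5% lower, and the list counts stand beside these shares. All 3 listed subunits and assembly factors of the complexes were higher in dKO, and in the PI3K, Akt and TSC branch 4 of 8 listed genes were higher and 4 lower. In the AMPK and energy branch 3 were higher and 3 lower, with Ddit4 at 1.56 ± 0.12 and Stk11 at 1.06 ± 0.08. Of the amino acid sensing genes 5 were higher and 10 lower. Of the S6 kinase and 4E-BP outputs 4 were higher and 6 lower, with Maf1 at 1.44 ± 0.08. Of the TOP genes 6 were higher, such as Eef2 (0.80 ± 0.04), and 3 lower, such as Nap1l1 (-1.73 ± 0.10) and Npm1 (-1.61 ± 0.07). After the GC adjustment Stk11 was at 0.005 (adjusted p = 0.952), Eef2 at -0.05 (0.421) and Eef1d, another of the 6, at -0.33 (0.0205). Of the listed subunits and assembly factors, Akt1s1 was then at -0.41 (0.0239) and Telo2 at 0.205 (0.441). Mapkap1 kept its direction and passed. Ddit4 (0.64), Maf1 (0.67), Nap1l1 (-0.46) and Npm1 (-0.60) kept their direction and passed. The adjusted fit holds only genes listed for a polysomal difference, so that choice enters these calls as well. Among all 5777 listed genes tested, 2705 passed after this adjustment.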

How the data were processed

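Total and polysomal RNA of 8 libraries was compared. RNA was extracted with Trizol, per the labels' protocols, and sequenced from strand-specific NEBNext Ultra Directional libraries. The submitters' processing notes name 3 tools (FastQC, TopHat, HTSeq) and 3 builds (mm9, mm10, GRCm38) and give no version or role for them. Neither the annotation nor the strand setting of counting is given in the sources used here. As values, the authors deposited raw counts of reads, whole numbers without normalization, by gene symbol. The series text speaks of 3 groups; the sample labels give 4 and were followed. Polysomal column totals, from 3740980 to 15414712 counts, are sums over listed genes and not library depth.

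Genes were tested on all rows with edgeR 4.0.16 in R 4.3.3 (quasi-likelihood F test, TMM scaling, filterByExpr), with Benjamini-Hochberg adjustment over all genes tested and a threshold of 0.05. Genotype comparisons used the 4 libraries of a fraction; the other comparisons used 8 libraries with 4 group means and the 5802 genes in both tables. Symbols of spreadsheet dates that could not be told apart stayed out of joins. Standard errors are the absolute log2 fold change over the square root of F. All 10 genes passed the filter in total RNA and all 5 listed ones in polysomal RNA. Exon lengths are merged exons, and GC content that of the longest coding transcript, in GENCODE M21 (GRCm38; 98.3% of total and 99.3% of polysomal rows matched). For the GC adjustment, the deviation of a library from the mean of the WT libraries in that fraction was smoothed over GC content by loess (span 0.5) and entered as an offset. Some genes of the lists are not reported here and were left out of list counts and of the naming rule. The members and lists were chosen with earlier results of these data known. Beyond the 10 genes, named genes are fixed partners and, per list, up to 4 with the largest total RNA change among called genes whose mean reached 5 CPM. Replicates differed beyond counting noise (chi-square per degree of freedom from 2.88 to 24.8, highest for dKO polysomal). No member transcript shared 200 or more bases at 95% or higher identity with another annotated gene. The code was tested on simulated data.

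As alternatives, DESeq2 1.42.0 was run, and edgeR with RLE or upper-quartile scaling, the replicate number as a block, each library left out, no filter, a minimum mean of 5 CPM, the GC adjustment, 1 fit over 8 libraries and a scaling of dKO polysomal libraries to the gap in the ratios.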

Additional observations from a re-analysis of the deposited data

Results flagged for a closer look

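In 5 genes the genotype difference was not the same in polysomal as in total RNA, by the test of the interaction of genotype and fraction. The difference of the log2 fold changes, polysomal minus total, was 0.929 for Rptor, -0.885 for Rictor, 0.92 for Akt1, -1.065 for Rps6kb1 and 0.476 for Eif4ebp2. Listed genes were chosen for a polysomal difference, and 89.5% of all shared genes passed this test, so the number flagged is no sign of anything particular to these genes. Rptor and Rictor changed sign between the fractions, Rptor from -0.32 to 0.57 and Rictor from 0.14, which did not pass the test, to -0.78. After the GC adjustment neither gene changed sign: Rptor was at -0.30 in total and -0.23 in polysomal RNA, and Rictor at 0.08 and 0.24. The interaction was then 0.11 for Rptor, 0.10 for Eif4ebp2, 0.08 for Rictor and -0.15 for Akt1, none of which passed. For Rps6kb1 it was 0.26, which passed with the other sign (adjusted p = 0.0495). Of 5780 genes tested, 2377 passed after this adjustment.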

How the results depend on the processing

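In total RNA DESeq2 called 2944 genes and the fit over 8 libraries 1286, against 4485. Of the 10 genes 4 were called, 1 in the fit over 8 libraries (which holds 5 of them) and 1 to 3 with a library left out. In polysomal RNA 5760 genes and 5 of the 5 were called, and 2705 and 1 after the GC adjustment. For the interaction 5171 and 5 were called, and 2377 and 1 after the GC adjustment. In the WT fraction comparison 693 genes and 2 of the 5 were called, and from 179 to 1998 and from 1 to 3 with a library left out. RLE scaling moved the median of all genes in polysomal RNA from -0.35 to -0.11 on the log2 scale and turned no sign among the 5.

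Of 24 changes of sign among the 37 named genes, 19 came with the GC adjustment. In polysomal RNA the values there were -0.23 for Rptor, 0.24 for Rictor, -0.12 for Akt1, 0.034 for Rps6kb1, -0.41 for Akt1s1, 0.87 for Pik3ca, -0.19 for Lamtor1, -0.048 for Eef2 and -0.33 for Eef1d. For the interaction they were 0.079 for Rictor, -0.15 for Akt1, 0.26 for Rps6kb1, -0.53 for Akt1s1, 0.13 for Grb10, 0.73 for Pik3ca, -0.17 for Stk11, -0.49 for Lamtor1, -0.34 for Eef2 and -0.006 for Eef1d. Of these, Akt1s1 (adjusted p = 0.0239, edgeR), Pik3ca (0.00033) and Eef1d (0.0205) passed in polysomal RNA. For the interaction Rps6kb1 (0.0495), Akt1s1 (0.00669), Grb10 (0.0348), Pik3ca (3.86e-05), Lamtor1 (0.00957) and Eef2 (0.000182) passed. The rest of the values after the GC adjustment did not pass. The other 5, none past the threshold, were Deptor (-0.023) and Rps6kb2 (0.065) in total RNA without WT replicate 2, Mapkap1 (-0.004) without dKO replicate 2, and the Grb10 interaction (0.067 with RLE scaling and with DESeq2). With a library left out, Deptor ranged from -0.023 to 0.577, Mapkap1 from -0.004 to 0.1 and Rps6kb2 from -0.27 to 0.065. The cause was not tested.

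With the replicate number as a block, total RNA gave 4369 calls, 4 of them among the 10 genes, polysomal RNA 5771 and 5, the interaction 5128 and 5, and the WT fraction comparison 598 and 2. Same-numbered libraries did not deviate together (correlations across genes from 0.001 to 0.031). Whether they came from the same embryos is not given in the labels, and this check cannot tell.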
